A study of Mus musculus with 7 samples.

Results

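The glutamate and GABA receptor subunits are the genes through which a cell detects the main excitatory and the main inhibitory transmitter of the brain. They were taken here by gene symbol alone: Gria, Grin, Grik and Grid followed by a number, Grm followed by a number, and the Gabra, Gabrb, Gabrg, Gabrd, Gabre, Gabrr and Gabbr symbols. The rule found 45 of the 31053 genes listed in the count matrices. Of these, 26 encode glutamate receptor subunits (4 AMPA, 7 NMDA, 5 kainate, 2 delta and 8 metabotropic) and 19 encode GABA receptor subunits (14 GABA-A, 3 GABA-rho and 2 GABA-B). The rule left out 5 genes of similar symbol, among them Grin1os, an antisense gene that overlaps Grin1, and the GABA-A genes Gabrq and Gabrp.

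AMPA, NMDA and kainate receptors are tetrameric cation channels opened by glutamate, GABA-A receptors are pentameric chloride channels, and the metabotropic and GABA-B receptors signal through G proteins. Neurons use them at synapses, but glia carry them too. Oligodendrocyte precursor cells (OPCs), which divide and give rise to the myelinating cells of the brain, receive synapses from neurons and respond to both transmitters. Committed oligodendrocyte precursors (COPs) are the next step of that lineage, and mature oligodendrocytes its end. Astrocytes take up both transmitters and sense them mainly through metabotropic receptors and GABA receptors.

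Single cells of untreated mouse brain were profiled with the 10x Genomics Chromium 3′ chemistry, in 7 libraries. CD1 mice gave 6 of them, all cut from thick coronal slices: tissue dorsal to the lateral ventricles, here called cortex, at postnatal days 2, 7, 15 and 60 (P2, P7, P15 and P60), plus P60 grey matter and P60 white matter. The cortex pieces also held white matter and the ventricular-subventricular zone (V-SVZ), and the P60 white matter piece held the corpus callosum and the V-SVZ. The remaining library, P7 SVZ, came from the microdissected dorsal and lateral V-SVZ of C57BL/6 mice, so region and strain cannot be told apart in it. No genotype other than the strain is given, and nothing says how many animals went into a library or that libraries came from separate animals, so p-values measure the spread between these libraries only.

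The libraries held 25747 barcodes, of which 20709 passed the filters, with 10074763 to 45668007 unique molecular identifiers (UMIs) per library and a median of 2791 to 9537 UMIs per kept cell. Clustering without the 45 receptor genes gave 50 clusters, of which 47 were named by markers and 429 cells stayed unnamed. The names made 17 classes, and 15 of them had at least 20 cells in some library. P7 SVZ shared 0 to 1 barcodes with each other library, against 2 to 28 in the 15 pairs of the other libraries. The cause was not tested, and a technical difference of P7 SVZ cannot be told apart from its region and strain. Each class was summed per library where it held that many cells, and a level is given in CPM, the UMIs of the gene scaled to a total of 1000000 UMIs in that sum. A 3′ library counts 1 molecule per transcript whatever its length, so CPM were not divided by gene length, although how well the 3′ end of each gene is captured was not measured. In these sums, fewer cells with a transcript and less of it per cell cannot be told apart.

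OPC-like cells numbered 1808 in 5 clusters, with 88 to 536 in a library and sums of 362985 to 4415780 UMIs. All 10 OPC markers were detected in each library. A count of 0 in such a sum allows up to 0.679 to 8.26 CPM (3 UMIs), a limit that, like the intervals below, covers counting error only. Different clusters were the largest in different libraries: cluster 24 in P2 and P7 cortex, cluster 18 in P7 SVZ, and cluster 6 in P15 cortex and the P60 libraries.

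In OPC-like cells the AMPA subunit Gria2, the NMDA subunit Grin3a, the metabotropic receptor Grm5 and the GABA-B subunit Gabbr1 led their families or shared the lead. Of the 45 members, 43 had at least 1 UMI there, 17 had a mean of 20 CPM or more over the 7 libraries, 5 had 100 CPM or more (Gria2, Gabbr1, Gria3, Grin3a and Grm5), and 20 stayed under 5 CPM. The 2 members with no UMI were Grm6, a receptor of retinal bipolar cells, and Gabra6, an α subunit of cerebellar granule cells. The plot of single libraries shows that Gria2 led in each of the 7 libraries, while neighbours further down the order overlapped.

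The AMPA family carries a known functional switch, shown here because Gria2 dominated it. In the pore of GluA2, the protein of Gria2, the genome encodes glutamine and RNA editing turns the codon into one for arginine, which makes the channel nearly impermeable to calcium. The stretches below are mouse genome sequence (mm10), 5′ to 3′ on the coding strand, with the codon of that site in capitals.
Gria1, exon 11 of 16, chr11:57243079-57243111, plus strand: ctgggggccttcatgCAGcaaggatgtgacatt
Gria2, exon 11 of 16, chr3:80706896-80706928, minus strand: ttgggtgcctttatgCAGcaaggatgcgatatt
Gria3, exon 11 of 16, chrX:41610250-41610282, plus strand: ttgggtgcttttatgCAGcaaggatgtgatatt
Gria4, exon 12 of 17, chr9:4464122-4464154, minus strand: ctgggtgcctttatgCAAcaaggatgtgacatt
All 4 genes encode glutamine at the site, by CAG in Gria1, Gria2 and Gria3 and by CAA in Gria4. The codon lies 8099 bases from the 3′ end of the transcript Gria2-201, and 1754 bases from the end of the other Gria2 transcript that holds it. Counts of 3′ ends therefore give the amount of each subunit but do not read the edited base.

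Gria2 stood at 535 CPM in P2 cortex, 579 in P7 cortex, 650 in P7 SVZ, 793 in P15 cortex, 773 in P60 cortex, 499.99 in P60 grey matter and 573 in P60 white matter (mean 629 ± 115, SD, n = 7). Its lowest library was P60 grey matter and its highest P15 cortex, and the ages overlapped. Gria3, another AMPA subunit, ran in the same library order at 65.2, 107, 148, 138, 198, 137 and 129 CPM (132 ± 40.2, SD, n = 7). P2 cortex was lowest and P60 cortex highest. Gria4 stood at 27.5, 35.8, 63.9, 66.6, 104, 67.9 and 90.9 CPM. Each of its 3 P60 levels lay above each of the 4 earlier ones. Gria1, the subunit best known from hippocampal plasticity, was lowest of the family at 9.18, 9.77, 20.6, 15.8, 7.41, 6.62 and 13.8 CPM.

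As a share of all AMPA subunit UMIs in OPC-like cells, Gria2 made up 84.0% in P2 cortex, 79.1% in P7 cortex, 73.7% in P7 SVZ, 78.3% in P15 cortex, 71.5% in P60 cortex, 70.2% in P60 grey matter and 71.0% in P60 white matter. Each P60 share lay below each earlier share, the nearest pair being 71.5% and 73.7%, and no test was made of shares. In astrocyte-like cells the same share was 96.4 to 99.8%, with no overlap with OPC-like cells. In the excitatory neuron-like cells it was 73.3 to 88.7%, a range that overlaps that of the OPC-like cells. In cortical interneuron-like cells it was 48.4% in P2 cortex and 39.2% in P7 SVZ, where Gria1 gave 39.9% and 43.7%.

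Cell by cell, most OPC-like cells held an AMPA transcript. After each cell was thinned to 2000 UMIs, which left out 4 to 17 shallower cells of a library, the share of OPC-like cells with a UMI of any AMPA subunit ran from 71.0% in P2 cortex to 91.2% in P60 cortex. Microglia-like cells, immune cells that should hold little of these transcripts, gave 0.923 to 9.56% at the same depth, with the highest share in P60 grey matter. Unthinned, the shares were 90.1 to 99.0% in OPC-like cells and 1.63 to 20.2% in microglia-like cells, with median depths of 3686 to 7936 and 2478 to 8267 UMIs. For GABA-A subunits the thinned share was 18.5 to 40.4% of OPC-like cells, and for any of the 45 genes 89.5 to 98.9%.

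Grin3a led the NMDA family in OPC-like cells. It encodes a subunit that binds glycine and lowers the calcium flow of the channel. It stood at 69.8 CPM in P2 cortex, 87.5 in P7 cortex, 128 in P7 SVZ, 104 in P15 cortex, 151 in P60 cortex, 81.1 in P60 grey matter and 102 in P60 white matter (103 ± 28.0, SD, n = 7). The highest and the lowest library differed in age, but P60 grey matter lay among the early libraries. Grin1, the subunit that every NMDA receptor needs, was far lower at 16.5, 21.2, 19.0, 16.5, 12.3, 11.6 and 13.8 CPM. Grin1 levels are uncertain, because Grin1os overlaps the gene on the other strand and the use of strand in counting is not given in the sources used here. Grin2b, a glutamate-binding subunit, stood at 7.34, 4.89, 8.61, 7.40, 14.8, 0 and 13.8 CPM. Grin2a, another such subunit, stood at 0, 0, 5.44, 2.36, 2.47, 0 and 0 CPM. Neither reached the level of Grin3a in any library.

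The make-up of the NMDA family therefore differed between classes. Grin3a gave 72.4 to 79.0% of NMDA subunit UMIs in OPC-like cells and 0.3 to 2.4% in excitatory neuron-like cells, where Grin2b gave 60.1 to 82.7%. Grin3a was not particular to OPC-like cells. In COP-like cells Grin3a also led the family, with a mean of 30.1 CPM against 4.0 CPM for Grin1, the next highest. It gave 2.3 to 32.1% in neural precursor-like cells. In cortical interneuron-like cells its mean was 73.3 CPM, below the 297 CPM of Grin2b. In astrocyte-like cells from P15 on, Grin2c, a subunit otherwise typical of the cerebellum and thalamus, gave 74.3 to 84.4%. Grin1 was 6.2 to 18.2% in OPC-like cells.

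Among kainate receptor genes in OPC-like cells, Grik5, a subunit that works only together with Grik1, Grik2 or Grik3, was highest in 6 of the 7 libraries. It stood at 70.7, 60.3, 38.3, 83.1, 104, 59.6 and 74.4 CPM in the same library order, lowest in P7 SVZ and highest in P60 cortex. Grik2, a channel-forming subunit, stood at 20.2, 19.5, 50.5, 20.5, 24.7, 26.5 and 22.0 CPM. P7 SVZ was thus high, and Grik2 gave 32.2% of kainate UMIs there against 10.2 to 13.6% elsewhere. Grik1 stood at 23.9, 40.3, 22.4, 44.4, 29.6, 36.4 and 33.1 CPM and Grik3 at 28.5, 24.4, 26.0, 17.8, 32.1, 21.5 and 24.8 CPM, both channel-forming subunits whose ages overlapped. Grik4, the other subunit that needs a partner, stood at 29.4, 22.4, 19.5, 36.0, 46.9, 51.3 and 33.1 CPM, with P60 cortex and P60 grey matter highest.

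The delta receptors are relatives of the ionotropic receptors that link synapses through cerebellins. Of these, Grid1 stood in OPC-like cells at 17.4, 37.1, 28.5, 41.1, 54.3, 64.6 and 41.3 CPM in the same library order. Each P60 level of Grid1 lay above each earlier level, the nearest pair being 41.3 against 41.1 CPM.

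Grm5, a receptor that raises intracellular calcium through Gq proteins, was the main metabotropic gene. Its level in OPC-like cells was 56.9 CPM in P2 cortex, 74.9 in P7 cortex, 104 in P7 SVZ, 97.9 in P15 cortex, 146 in P60 cortex, 72.8 in P60 grey matter and 157 in P60 white matter (101 ± 37.8, SD, n = 7). Among the P60 libraries, grey matter was low and the other two high. Grm7, a presynaptic receptor, stood at 0.918, 1.63, 3.62, 1.68, 7.41, 3.31 and 5.51 CPM, and Grm3, a receptor that lowers cyclic AMP, at 2.75, 2.44, 1.36, 0.673, 4.94, 8.28 and 0 CPM. Both were near the limit that a count of 0 allows in the smaller sums.

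The GABA-A genes of OPC-like cells covered α, β and γ subunits, which together form a channel. Gabrg1 (γ1), which gives receptors with little benzodiazepine sensitivity, stood at 23.9, 29.3, 44.6, 23.9, 34.6, 66.2 and 24.8 CPM, and Gabra2 (α2) at 13.8, 17.5, 21.1, 22.2, 37.0, 67.9 and 11 CPM. For both genes the highest library was P60 grey matter, and for Gabra2 the lowest was P60 white matter, of the same age. Gabra3 (α3) stood at 11.9, 18.3, 16.5, 21.9, 27.2, 21.5 and 22.0 CPM, lowest in P2 cortex.

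Other GABA-A subunits were lower in OPC-like cells. Gabrb2 (β2) stood at 1.84, 1.63, 9.51, 4.37, 9.88, 4.97 and 2.75 CPM, highest in P60 cortex and P7 SVZ. Gabra5 (α5), a subunit of receptors outside synapses, was at 4.98 CPM or less in each library, and at 0 in P7 cortex, P60 cortex and P60 white matter.

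Gabbr1, the GABA-binding subunit of the GABA-B receptor, stood at 148, 190, 130, 214, 254, 232 and 215 CPM (198 ± 44.8, SD, n = 7). Each P60 level lay above each earlier level, the nearest pair being 215 against 214 CPM. Gabbr2, the subunit that couples the receptor to its G protein, was lower in each of the 7 libraries, at 11.9, 21.2, 45.1, 23.9, 19.8, 16.6 and 24.8 CPM, with P7 SVZ highest.

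Many of these transcripts were lower in COP-like than in OPC-like cells, and none was higher without overlap. The COP-like class held 897 cells, and 6 libraries had enough of them (24 to 423 cells), P60 grey matter being left out. Of the 21 members with a mean of 10 CPM or more over both classes, 11 were lower in each COP-like sum than in each OPC-like sum, against 11.9% of all genes tested in that direction, and 0 were higher in the same way, against 5.81% of all genes. The classes were built from other genes of the same cells, so this is a description without a test. Without the COP-like cluster of 154 cells whose median UMI count was 3.14 times that of its libraries, a setting chosen after seeing the data, 10 members were lower and 0 higher, Gria3 no longer being among them. The 12 mature oligodendrocyte markers together stood at 18245 to 48884 CPM in COP-like and at 245 to 1278 CPM in OPC-like sums, and the 10 COP markers at 8536 to 10460.5 CPM and 1206 to 2329 CPM. The part of the mature markers in the lower receptor levels was not tested.

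The members that were lower in COP-like sums came from most families. Grm5 stood at 14.4, 11.8, 13.4, 24.5, 14.4 and 22.1 CPM in the 6 libraries, in order of age with P7 cortex before P7 SVZ and P60 cortex before P60 white matter, a mean 6.33-fold below OPC-like cells. Grik1 reached at most 3.59 CPM, 20.3-fold lower by the means. Among the others were Gabbr2 (7.19-fold), Gabra3 (6.22-fold), Grin1 (4.14-fold), Grin3a (3.55-fold), Gabra2 (3.49-fold), Grik4 (3.30-fold), Gria3 (3.15-fold) and Gabbr1 (2.63-fold).

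Some subunits did not separate these classes. Gria2 stood at 387, 329, 342, 651, 917 and 529 CPM in COP-like cells, with P60 cortex highest, and its means differed 1.24-fold. Gria4 stood at 43.1, 53.2, 61.2, 39.5, 64.9 and 62.0 CPM (1.20-fold lower by the means). Grid1 differed 1.21-fold, and both overlapped between the classes. Grik3 was higher in COP-like cells in 5 of 6 libraries, the mean of OPC-like cells being 0.743 times theirs, but the libraries overlapped. The plot of the lineage shows both patterns: Grm5 and Gabra3 are lower in COP-like sums without overlap, and Gria2 and Gria4 overlap.

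**Figure D1:**
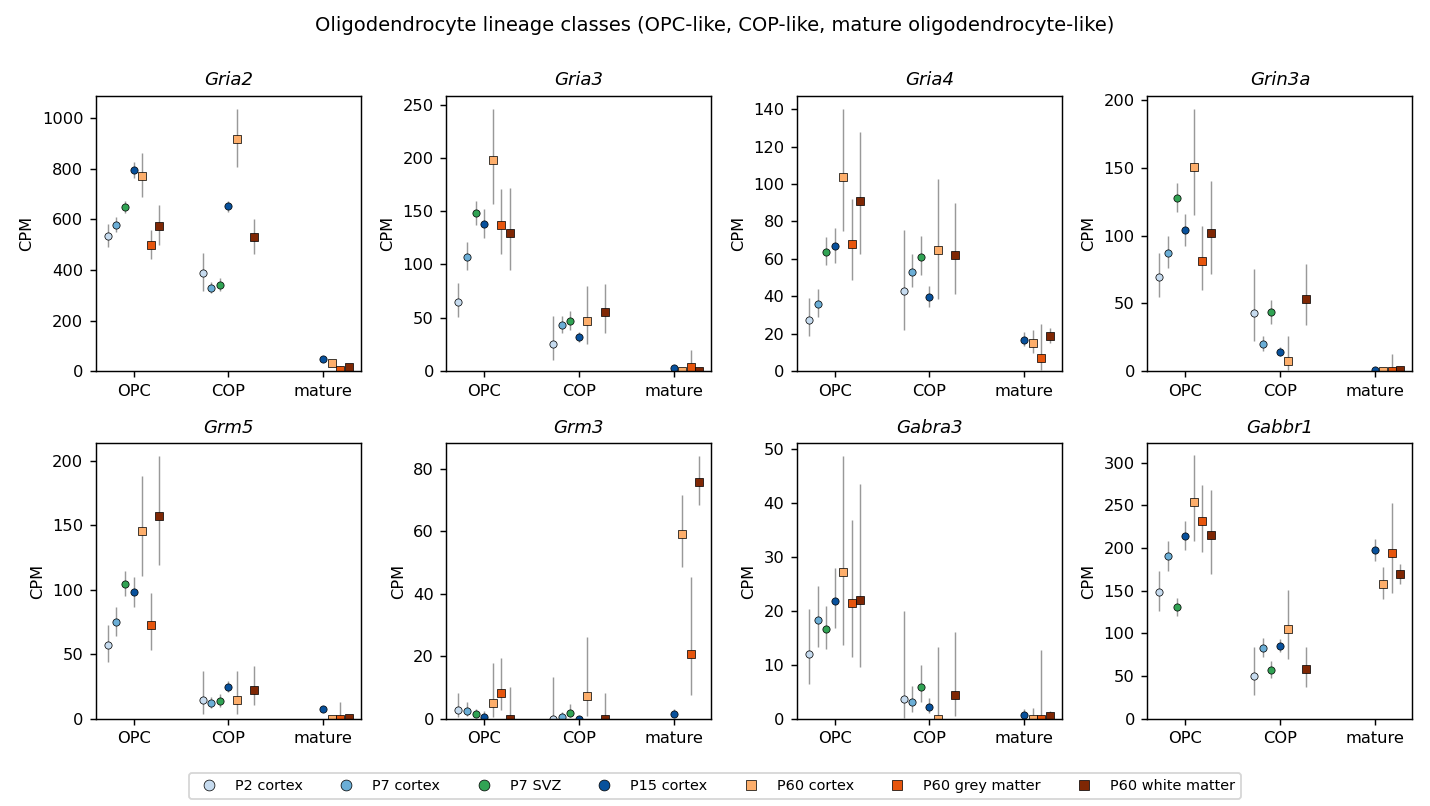
CPM of 8 receptor genes in OPC-like, COP-like and mature oligodendrocyte-like sums, 1 point per library (circles P2 to P15, squares P60) with exact Poisson 95% intervals. Gabbr1 is lower in COP-like cells than in both other classes, and Grm3 reaches 75.8 CPM in mature cells of P60 white matter.

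Mature oligodendrocyte-like cells kept few of these transcripts. Only 4 members had a mean of 20 CPM or more, over the 4 libraries with this class (P15 cortex, P60 cortex, P60 grey matter and P60 white matter). Gabbr1 stood at 197, 158, 194 and 169 CPM, all above the 50.2, 82.8, 57.2, 85.5, 105 and 57.6 CPM of the COP-like sums. Grm3 stood at 1.46 CPM in P15 cortex and at 59.2, 20.8 and 75.8 CPM in the P60 libraries. Gria2 was at 46.9, 30.2, 3.47 and 14.4 CPM, each below its COP-like levels. Grm4, another receptor that lowers cyclic AMP, was at 27.5 CPM in P15 cortex and at 0.558 CPM or less in the P60 libraries.

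Astrocyte-like cells (3580, of which 6 libraries had enough) carried these transcripts in other proportions. Of the 24 members tested against OPC-like cells in the same 6 libraries, 9 were lower in each astrocyte-like sum, against 13.7% of all genes, among them Gria3, Gria4, Grin3a, Grik1, Grik2, Grik3, Grik4 and Gabra3. A further 5 were higher without overlap, against 6.46% of all genes: Grm3, Gabra4, Gabrb1, Gabrg1 and Gabbr1. Grin2b, Gabra2 and Gabbr2 were also higher in astrocyte-like cells in 6 of 6 libraries, and Grid1 lower in 6 of 6, but their ranges over libraries overlapped. These counts are descriptions, made without a test. Astrocyte-like cells thus had AMPA transcripts of almost 1 kind. Their GABA-A transcripts differed from those of OPC-like cells in proportion, while Gabra2 and Gabrg1 had means above 20 CPM in both classes.

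The levels of members in astrocyte-like cells are given by library in the plot of this class and described here without a test. Stages did not overlap for 31.1% of all genes tested in this class. Gria2 stood at 277 CPM in P2 cortex, 654 in P7 cortex, 1366 in P15 cortex, 1878 in P60 cortex, 1477 in P60 grey matter and 1707 in P60 white matter. Grin2c stood at 1.87, 11.6, 221, 315, 434 and 508 CPM in the same order. For both genes each P60 library lay above each earlier one. Grin2b, a glutamate-binding NMDA subunit, stood at 12.2, 8.66, 10.1, 92.6, 51.7 and 112 CPM. Its 3 early libraries lay close together and the P60 libraries above them. Grm5 went the other way, at 215, 232, 49.2, 30.7, 14.4 and 25.4 CPM, with the main step between P7 and P15. Grm3 stood at 91.6, 97.3, 177, 222, 342 and 228 CPM, each P60 library above each earlier one.

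**Figure D2:**
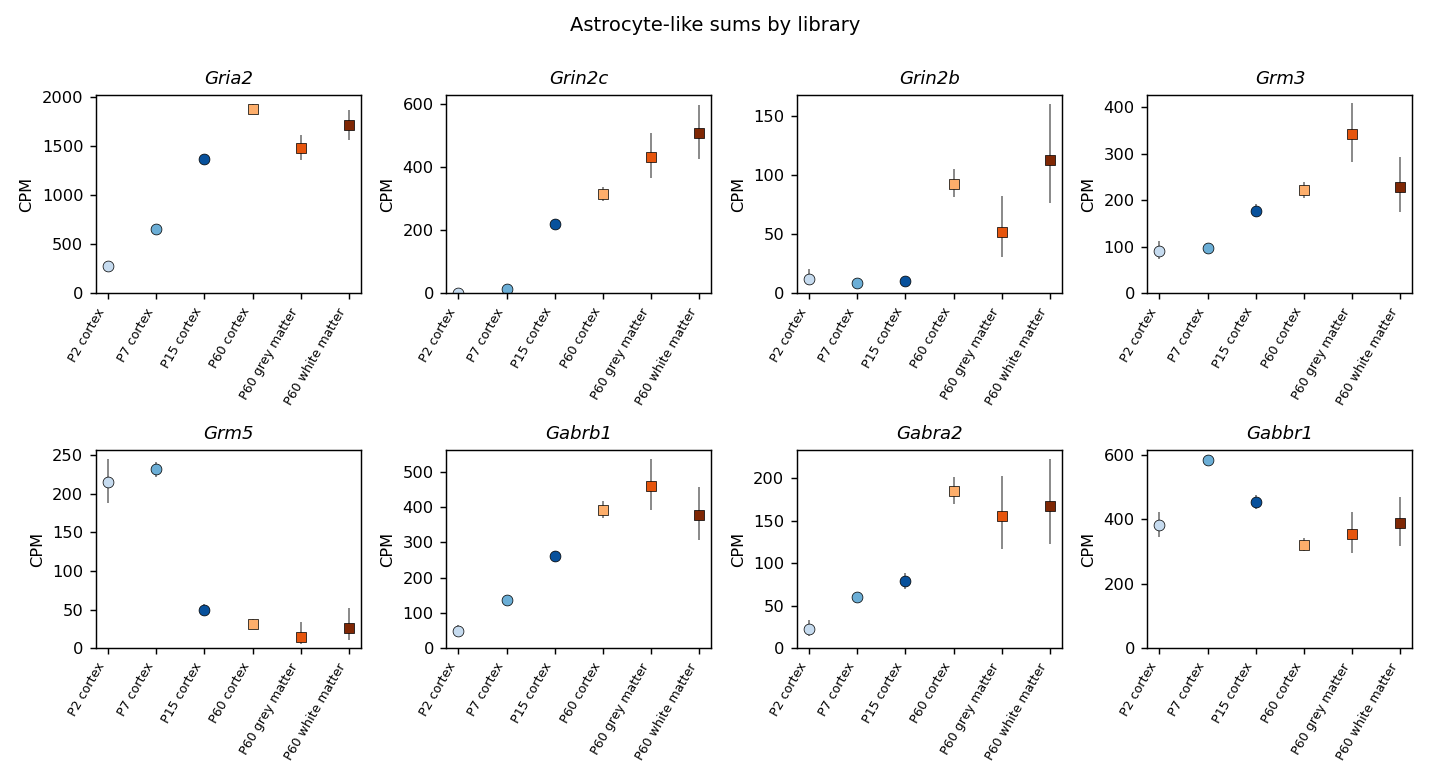
CPM of 8 receptor genes in astrocyte-like sums, 1 point per library with exact Poisson 95% intervals (circles P2 to P15, squares P60). Grin2b is at 12.2 CPM or less in the early libraries and at 51.7 CPM or more at P60, and Grm5 is above 200 CPM only in P2 and P7 cortex.

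The GABA genes of astrocyte-like cells were Gabrb1 (β1) at 49.5, 137, 260, 393, 460 and 377 CPM and Gabra2 at 22.4, 59.8, 78.5, 185, 155 and 167 CPM. Both were lowest in P2 cortex, and their P60 libraries lay above the early ones. Gabrg1 (87.9 to 184 CPM) and Gabra4 (20.6 to 50.8 CPM) completed the set. Gabbr1 stood at 382, 583, 453, 321, 353 and 388 CPM, highest in P7 cortex, and Gabbr2 at 17.8, 84.4, 140, 59.3, 57.5 and 43.5 CPM, highest in P15 cortex.

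The 3 P60 libraries, called adult, were compared with the 4 earlier ones, called early, in each class by edgeR's quasi-likelihood test over all expressed genes, with Benjamini-Hochberg adjustment and a threshold of 0.05. In OPC-like cells no member passed. There, 23 members were tested, and the backgrounds were 3.05% of 9804 genes higher and 3.55% lower at P60. The median log2 difference (adult minus early) was 0.23 over the members and 0.01 over all genes. DESeq2 also called 0 members. An unadjusted p under 0.05 was found for 3 of the 23, against 22.1% of all genes, all of them GABA-A genes with higher P60 means: Gabrb1 (log2 difference 1.33 ± 0.49, SE, edgeR adjusted p = 0.125), Gabrg3 (1.35 ± 0.57, edgeR adjusted p = 0.179) and Gabra2 (0.91 ± 0.42, edgeR adjusted p = 0.220). Gria2 differed by -0.25 ± 0.22 (edgeR adjusted p = 0.561).

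Without P15 cortex, 2 members passed in OPC-like cells, both higher at P60: Gabrb1 (log2 difference 1.70, edgeR adjusted p = 0.0290) and Gabrg3 (2.08, edgeR adjusted p = 0.00836). Leaving out any other single library gave 0. The share of all genes called without P15 cortex is not given here, so this count has no background beside it. Gabrb1 stood at 1.84, 11.8, 8.61 and 19.2 CPM early and at 42.0, 24.8 and 27.5 CPM at P60. Gabrg3 stood at 2.75, 4.48, 5.66 and 18.2 CPM early and at 34.6, 13.2 and 24.8 CPM at P60, so P15 overlapped the adult libraries. In all, 5 of the 23 members had stages that did not overlap, 4 of them higher at P60 (Gabrb1, Grid1, Gria4 and Gabbr1) and Grin1 lower, against 22.8% of all genes tested, so the share was near the background. The 12 astrocyte markers together stood at 469 to 1141 CPM in the early OPC-like sums and at 1270 to 1982 CPM in the adult ones, with 9 to 12 of them detected. The 12 cortical interneuron markers, led by Nxph1, stood at 396 to 536 CPM early and 821 to 949 CPM at P60, with 8 to 12 detected. The 12 microglia markers stood at 12.9 to 134 CPM early and 146 to 1664 CPM at P60, with 2 to 12 detected. Without its leading gene, the astrocyte list overlapped between the stages, at 279 to 694 CPM early and 620 to 1189 CPM at P60. The interneuron and microglia lists did not overlap without theirs. Of the other lists, the COP markers stood at 1206 to 2198 CPM early and 2212 to 2329 CPM at P60. The neural precursor (819 to 1530 and 510 to 773) and neuroblast markers (113 to 570 and 42.0 to 96.4 CPM) were lower at P60. The border-associated macrophage markers stood at 26.6 to 55.9 and 62.9 to 85.4 CPM. Without its leading gene, the OPC list stood at 3866 to 7079 and 7194 to 7984 CPM. The neural precursor and border-associated macrophage lists overlapped without theirs. The part of these lists in the higher Gabrb1 and in the other differences between stages was not tested.

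In astrocyte-like cells 1 of the 17 members tested passed, Grin2b, which was higher at P60 by a log2 difference of 3.10 ± 0.34 (SE, edgeR adjusted p = 0.0259, higher in 3 of 3 adult libraries). The backgrounds were 0.0293% of 10252 genes higher and 0.0195% lower. The call was lost, with 0 members called, without P7 cortex, without each of the P60 libraries in turn (edgeR adjusted p from 0.0685 to 0.329) and with a mitochondrial limit of 20% (edgeR adjusted p = 0.0899), while without P15 cortex 9 members passed, among them Gabra2, Gabrb1, Gria2, Grik5, Grin2b, Grin2c and Grm3, higher at P60, and Grm5, lower. With a library left out, the log2 difference of Grin2b was 2.92 to 3.28, and with the 20% mitochondrial limit it was 2.35. DESeq2 called 3 members (Gabra2, Grin2b and Grm5). The backgrounds above belong to the main setting. The shares of all genes called without P15 cortex and by DESeq2 are not given here, so these counts have no background beside them. The clusters differed too, with cluster 0 holding most P60 cells, clusters 2 and 20 those of P2 and P7, and cluster 9 those of P15.

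The other members gave the following values in astrocyte-like cells. Grm5 differed by -2.71 ± 0.59 (SE, edgeR adjusted p = 0.0922), Gabra2 by 1.64 ± 0.41 (edgeR adjusted p = 0.103), Gria2 by 1.14 ± 0.53 (edgeR adjusted p = 0.216) and Grin2c by 2.39 ± 1.15 (edgeR adjusted p = 0.228). Without P15 cortex these were -3.09 for Grm5 (edgeR adjusted p = 9.29e-06), 1.96 for Gabra2 (edgeR adjusted p = 0.000799), 1.86 for Gria2 (edgeR adjusted p = 0.00347) and 5.58 for Grin2c (edgeR adjusted p = 3.15e-06). In all, 7 of the 17 had an unadjusted p under 0.05, against 24.9% of all genes. Stages did not overlap in 9 of the 17, 8 of them higher at P60, against 31.1% of all genes tested in this class.

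Because Grin2b is a neuronal gene, the 12 excitatory neuron markers were summed in the same astrocyte-like sums. They stood at 273, 322 and 700.5 CPM in the early libraries and at 1012, 741 and 1037 CPM in the adult ones. Rorb, a transcription factor of this list, gave most of it, 149, 228 and 553 CPM early and 861, 647 and 881 CPM at P60. Without Rorb, the rest of the list overlapped between the stages, at 94.4 to 147 CPM early and 94.8 to 156 CPM at P60. In P60 white matter 6 of the 12 were detected, and Tbr1, Slc17a7, Slc17a6, Neurod2 and Bcl11b were among those at 0. A count of 0 allows up to 10.9 CPM in that sum and up to 8.62 CPM in that of P60 grey matter. Grin1 was at 3.22 CPM, 2.87 CPM and 0 in the 3 P60 astrocyte-like sums. Of the other lists, the 12 microglia markers stood at 30.9 to 139 CPM early and 192 to 1417 CPM at P60, with 4 to 12 detected. The 12 striatal neuron markers, led by Meis2, stood at 42.1 to 48.7 CPM early and 126 to 145 CPM at P60 when Meis2 was left out, with Drd2 at 0 in all but P7 cortex. The part of these markers in the higher Grin2b was not tested.

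Whether the age difference itself differed between astrocyte-like and OPC-like cells was tested with an interaction term in edgeR, over 6 libraries with the library as a block, a test added after seeing the data. No member of 26 passed, against 0.709% of 10720 genes. An unadjusted p under 0.05 was found for 6 members, against 15.7% of all genes, with the lowest adjusted values for Grm5 (-3.03 ± 0.65, SE, edgeR adjusted p = 0.0520) and Grin2b (2.80 ± 0.62, edgeR adjusted p = 0.0616). By this test the age differences of the classes are not shown to differ.

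In the other classes tested no member passed: 0 of 16 in COP-like cells, 0 of 16 in neuroblast-like cells, 0 of 3 in microglia-like cells and 0 of 2 in endothelial-like cells. Stages did not overlap in 6 of the 16 in COP-like cells (27.4% of all genes), 5 of the 16 in neuroblast-like cells (25.8%), 1 of the 3 in microglia-like cells (10.8%) and 0 of the 2 in endothelial-like cells (39.6%). The backgrounds called in either direction were 0.0108% higher and 0.0215% lower in COP-like, 0.0481% and 0.0674% in neuroblast-like, 0.0105% and 0.0418% in microglia-like and 5.53% and 4.29% in endothelial-like cells. In neuroblast-like cells Grm5 (-4.61, edgeR adjusted p = 0.216) and Gria1 (-3.60, edgeR adjusted p = 0.244) had lower P60 levels, and both passed when no filter on low counts was used. The share of all genes called without that filter is not given here.

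GABA-A genes lie in clusters on the genome, and the classes differed in how much of their GABA-A transcripts came from one of these. On mm10 the Gabra2 cluster (Gabrg1, Gabra2, Gabra4 and Gabrb1) spans chr5:70751047-72149037. This grouping was chosen after seeing the values, so it is described without a test. The Gabra2 cluster gave 93.2 to 98% of GABA-A UMIs in astrocyte-like cells and 82.3 to 95.1% in neural precursor-like cells, the dividing progenitors of the ventricular zone. High shares were also found in ependymal-like (81.25%) and border-associated macrophage-like cells (92.7%), each in 1 library. In excitatory intermediate precursor-like cells the share was 38.5 to 83.4% over 3 libraries, with a median of 79.4%. In OPC-like cells the Gabra2 cluster gave 36.4 to 62.0%, highest in P60 grey matter. In excitatory neuron-like cells it gave 39.6% in P2 cortex, 13.8% in P7 SVZ, 36.4% in P15 cortex and 31.2% in P60 cortex.

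**Figure D3:**
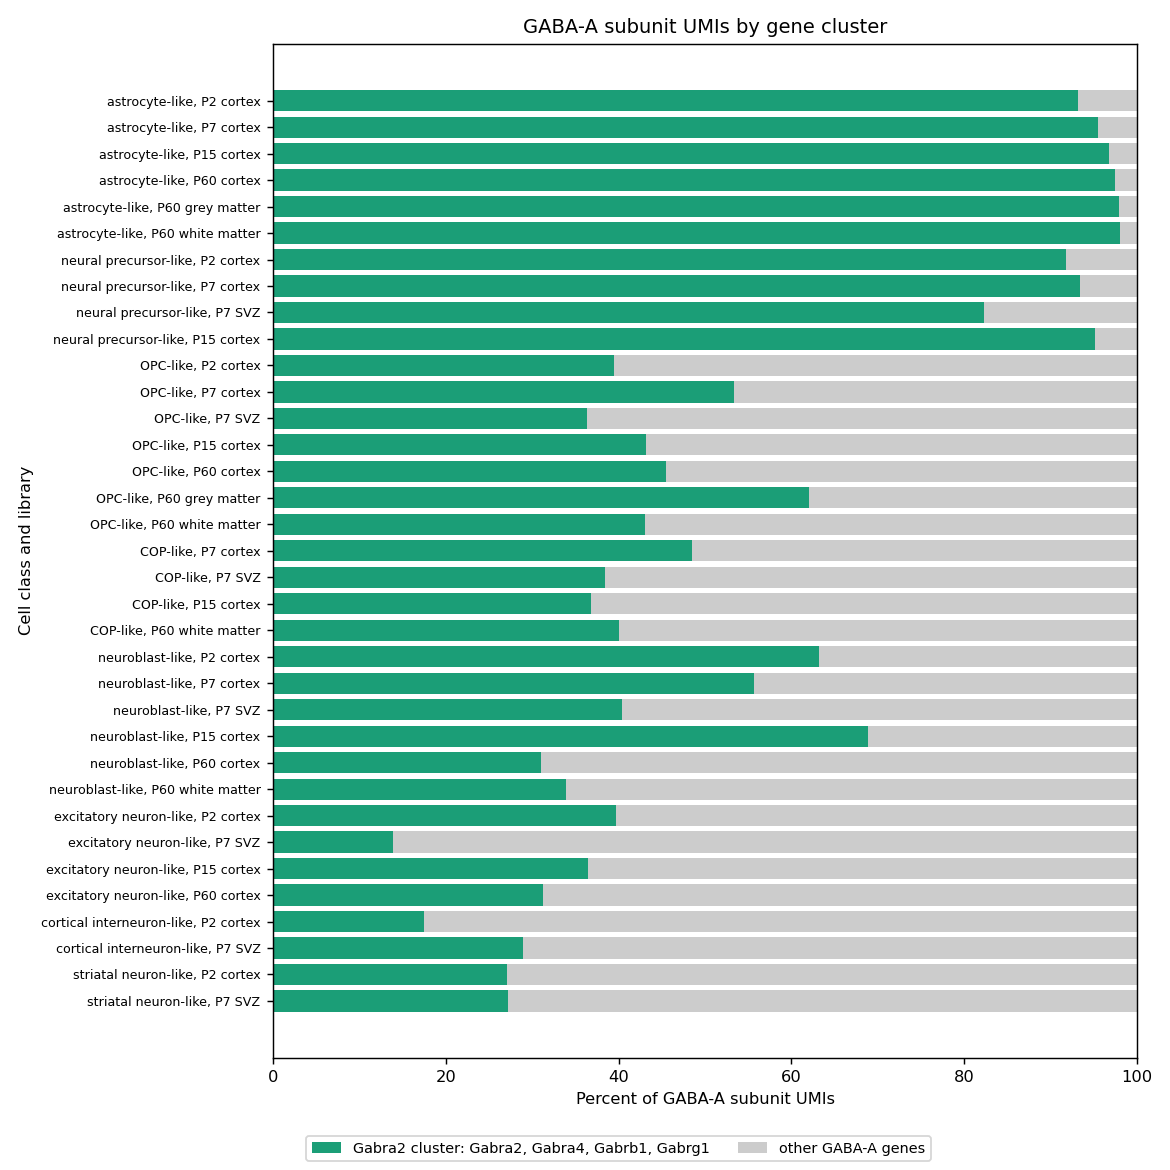
Percent of GABA-A subunit UMIs from the genes of the Gabra2 cluster (green) and from other GABA-A genes (grey), 1 bar per class and library. The bars of astrocyte-like and neural precursor-like cells are almost filled by the Gabra2 cluster, and those of OPC-like cells reach 36.4 to 62.0%.

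The promoters of neighbouring genes in the Gabra2 cluster differ in base composition, shown for a pair whose mean levels were above 20 CPM in both OPC-like and astrocyte-like cells. Both are the 250 bases before the start site (RefSeq, GRCm38.p6), with the letters CATTGT, a core motif of SOX factors, in capitals.
Gabra2, chr5:71095850-71096099, minus strand: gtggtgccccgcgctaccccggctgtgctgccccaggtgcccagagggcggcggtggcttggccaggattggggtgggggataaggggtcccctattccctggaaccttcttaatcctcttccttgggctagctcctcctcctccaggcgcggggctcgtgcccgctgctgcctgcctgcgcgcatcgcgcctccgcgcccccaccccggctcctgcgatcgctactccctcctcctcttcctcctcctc
Gabrg1, chr5:70842618-70842867, minus strand: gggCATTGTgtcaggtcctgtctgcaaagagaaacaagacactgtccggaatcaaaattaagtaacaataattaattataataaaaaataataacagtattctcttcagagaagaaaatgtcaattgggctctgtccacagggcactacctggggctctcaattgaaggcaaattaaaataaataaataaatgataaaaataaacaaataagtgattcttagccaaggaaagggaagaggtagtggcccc
The GC content is 70.0% before Gabra2 and 35.6% before Gabrg1. RefSeq promoter entries of 300 bases were found for 30 of the 45 members, and CATTGT, searched on both strands, occurred in those of Gabrg1 and Grin1, against 10.7% of 32851 promoters. The letters TGACGTCA (1.55% of promoters) and CAGCTG (13%) occurred in none of the members' windows, and TATAAA (12.4%) in those of Gabra3, Gabrb2 and Grin3b. A match of letters is a description and says nothing about binding.

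Neurons held the widest set. Of the 45 members, 28 had a mean of 20 CPM or more in excitatory neuron-like cells, 26 in striatal neuron-like and 25 in cortical interneuron-like cells, against 17 in OPC-like, 14 in astrocyte-like, 10 in COP-like, 8 in neural precursor-like, 6 in neuroblast-like and 1 in microglia-like cells. In excitatory neuron-like cells Gria2 stood at 407, 543, 1292 and 1678 CPM in P2 cortex, P7 SVZ, P15 cortex and P60 cortex, and Grin2b at 411, 425, 1402 and 1208 CPM. Grin1 stood at 39.8, 75.1, 393 and 377 CPM and Grin2a at 32, 83.1, 383 and 415 CPM. For all of these genes the P15 and P60 libraries lay above the P2 and P7 ones, with 1 library per age and no test. The P7 library of this class was P7 SVZ, which differs in strain and region. Gabbr1 stood at 170, 226, 548 and 685 CPM, in the same pattern, and Grm5 at 88.1 to 329 CPM.

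**Figure D4:**
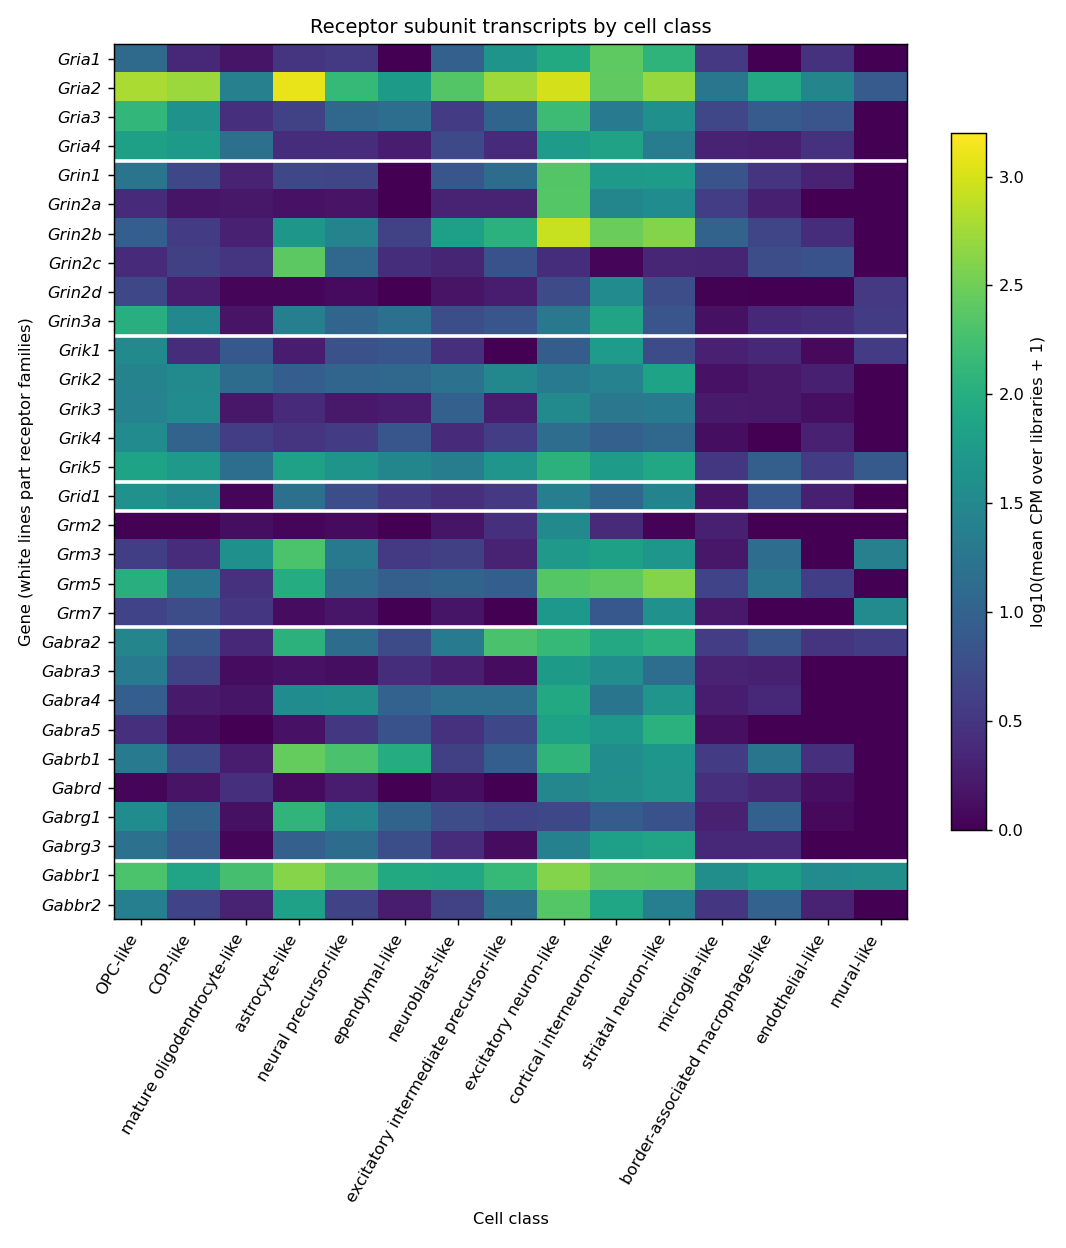
Mean level over libraries, as log10(CPM + 1), of receptor genes that reach a mean of 20 CPM in at least 1 class (rows, by family) in the 15 cell classes (columns). Gria2 and Gabbr1 are bright across neurons and glia. Grin3a and Gria3 are bright in OPC-like cells, Grin3a also in cortical interneuron-like cells, and Grin2c in astrocyte-like cells.

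Cortical interneuron-like cells, seen in P2 cortex and P7 SVZ, led with Grin2b (346 and 247 CPM), Gria2 (251 and 269 CPM), Grm5 (174 and 332 CPM) and Gria1 (207 and 299 CPM). Striatal neuron-like cells of the same libraries led with Gria2 (332 and 666 CPM), Grm5 (297 and 519 CPM), Grin2b (347 and 458 CPM) and Gabbr1 (210 and 264 CPM). Grm5 was thus among the leading genes in both inhibitory neuron classes and in OPC-like cells.

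Immature cells carried fewer. Neural precursor-like cells led with Gabbr1 (207 CPM in P2 cortex, 265 in P7 cortex, 235 in P7 SVZ and 245 in P15 cortex) and Gabrb1 (179, 234, 127 and 217 CPM), followed by Gria2 (114, 110, 176 and 160 CPM) and Grik5 (57.8, 54.3, 29.7 and 33.2 CPM). Neuroblast-like cells, young migrating neurons, led with Gria2 (175, 164, 305, 179, 260 and 248 CPM in the 6 libraries other than P60 grey matter), Gabbr1 (101, 82.3, 81.6, 53.8, 73.3 and 105 CPM) and Grin2b (86.0, 30.3, 51.5, 44.4, 86.6 and 79.3 CPM). P7 SVZ was highest for Gria2, and the ages overlapped for Gabbr1 and Grin2b. Excitatory intermediate precursor-like cells led with Gria2 (694, 333 and 584 CPM in P2 cortex, P7 cortex and P7 SVZ) and Gabra2 (220, 245 and 105 CPM), then Gabbr1 (147, 140 and 127 CPM) and Grin2b (176, 68.4 and 82.4 CPM). Gria2 was present in each of these classes at 110 CPM or more.

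Ependymal-like cells, which line the ventricles, led with Gabrb1 (99.8 CPM in P7 cortex and 90.4 CPM in P15 cortex), Gabbr1 (121 and 54.3 CPM), Gria2 (72.0 and 36.2 CPM) and Grik5 (39.3 and 18.1 CPM). Microglia-like cells held Gabbr1 at 13.4, 26.7, 26.1, 35.9, 53.9, 62.8 and 43.4 CPM, Gria2 at 26.8, 9.0, 16.0, 11.7, 10.4, 43.8 and 1.24 CPM, Grin2b at 44.7, 0.333, 6.73, 2.69, 1.74, 9.35 and 0.620 CPM and Grin1 at 0, 1.0, 1.68, 1.79, 3.48, 30.2 and 1.86 CPM in the order of all 7 libraries. The highest Gria2 and Grin1 were in P60 grey matter. A count of 0 allows up to 27.1 CPM in the ependymal-like sum of P15 cortex and 13.4 CPM in the microglia-like sum of P2 cortex. RNA of other cells in these sums was not tested.

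Border-associated macrophage-like cells held Gria2 at 179, 57.9 and 19.3 CPM in P7 cortex, P15 cortex and P60 grey matter, Gabbr1 at 130, 36.2 and 16.5 CPM, Gabrb1 at 39.3, 10.9 and 0 CPM and Grm5 at 45.2, 3.62 and 0 CPM. All 4 were highest in P7 cortex. In that sum Gria2 gave 91 of 92 AMPA UMIs. The Gabra2 cluster gave 92.7% of its GABA-A UMIs, against 93.2 to 98% in astrocyte-like cells. The part of RNA of other cells in the sums of this paragraph was not tested. Endothelial-like cells, in P7, P15 and P60 cortex, P60 grey matter and P60 white matter, held Gabbr1 at 24.2, 33.6, 43.0, 25.6 and 45.7 CPM, Gria2 at 8.41, 65.5, 19.1, 0 and 45.7 CPM, Gria3 at 3.15, 3.54, 0, 0 and 22.8 CPM and Grin2c at 0, 1.77, 9.55, 8.52 and 7.61 CPM. Mural-like cells, in P15 cortex, P60 cortex and P60 white matter, held Gabbr1 at 31.2, 42.3 and 36.9 CPM, Grm7 at 0, 70.5 and 30.7 CPM, Grm3 at 0, 28.2 and 43.0 CPM and Gria2 at 7.81, 14.1 and 0 CPM. Gabbr1 was among the leading genes of each of these classes and at 0 in none of their sums. A count of 0 allows up to 3.15 to 22.8 CPM in the endothelial-like sums and 18.4 to 23.4 CPM in the mural-like sums. Many of these values lie near or under that limit. Grin2c rested on 6 UMIs over all endothelial-like sums, and Gria2 on 3 over all mural-like sums.

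Pairs of single libraries allow a comparison of regions in OPC-like cells, without replicates and so without a test. Between P60 white and grey matter, of the 22 members with at least 10 UMIs in the pair, 1 (Grm5) was at least 2-fold higher in white matter, against 7.94% of all genes, and 3, among them Gabrg1 and Gabra2, were at least 2-fold lower, against 11.8%. Grm5 was at 157 CPM in white and 72.8 CPM in grey matter, a ratio of 2.16 (95% interval 1.43 to 3.27), and Gabra2 at 11 against 67.9 CPM (0.162, 0.0422 to 0.448). The Gria2 ratio was 1.15 (0.956 to 1.37). In astrocyte-like cells of the same pair, 2 of 14 members (Gabra4 and Grin2b) were at least 2-fold higher in white matter, against 11.4% of all genes, and 0 were at least 2-fold lower, against 9.01%. The 12 microglia markers together stood at 1664 CPM in the OPC-like sum of P60 grey matter (12 detected) and at 146 CPM in that of P60 white matter (7 detected), and their part in the ratios was not tested.

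Between P7 SVZ and P7 cortex, of 34 such members, 11 were at least 2-fold higher in OPC-like cells of the SVZ, against 12.7% of all genes, and 0 were at least 2-fold lower, against 7.7%. Grik2 was at 50.5 against 19.5 CPM (ratio 2.58, 1.88 to 3.61), and others past that ratio were Gabbr2, Grm7, Gria1, Grin2a, Gabra5 and Gabrb2. Gabbr1 was at 130 against 190 CPM (0.685, 0.605 to 0.775). In the same pair, 8 of 22 members were at least 2-fold higher in COP-like cells of the SVZ (11.6% of all genes) and 18 of 34 in neuroblast-like cells (12.7% of all genes), with 1 lower in each (7.81% and 10.1% of all genes). These libraries differ in strain as well as region, and their OPC-like cells lie mostly in different clusters. P7 SVZ also shares almost no barcodes with the other libraries, so a technical difference cannot be told apart either.

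Genes that work with these receptors were counted by lists of partners: 32 for glutamate receptors (scaffolds and auxiliary subunits) and 12 for GABA receptors. In OPC-like cells 24 glutamate partners were tested by edgeR, and 1 changed between the stages, against 3.05% of all genes higher and 3.55% lower: Homer2, a scaffold that binds Grm5, fell from 53.8 to 23.5 CPM (log2 difference -1.41 ± 0.34, SE, edgeR adjusted p = 0.0274). None of the 10 GABA partners tested passed there. In astrocyte-like cells 0 of 16 glutamate and 0 of 9 GABA partners passed, and none passed in COP-like, neuroblast-like or microglia-like cells. In endothelial-like cells 1 glutamate and 4 GABA partners were tested, and 5.53% of all 4288 genes were higher and 4.29% lower at P60. There the scaffold Homer3 fell (log2 difference -3.10, edgeR adjusted p = 0.0172) and Kctd12, an auxiliary subunit of GABA-B receptors, rose (1.71, edgeR adjusted p = 0.0284).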

How the data were processed

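The deposited matrices hold whole UMI counts per gene and cell barcode for 7 libraries. Cell Ranger 3.0.2 wrote the matrices, per the file headers, and the submitters' processing notes name the build mm10. Which annotation release, cell calling settings and strand setting were used is not given in these sources. Total UMIs per library ran from 10074763 to 45668007.

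Barcodes with under 500 genes (1304), over 10% mitochondrial UMIs (3441) or a Scrublet doublet call (293, or 0.95 to 1.80% of a library) were left out. Cells were clustered in scanpy 1.11.5 (2000 variable genes without the receptor genes, 30 principal components, 15 neighbours, Leiden resolution 1.5 in leidenalg 0.10.2), and a cluster was named from at least 3 raised markers. A barcode sequence occurred in 2 or more libraries for 190 of 25747. UMIs were summed by class and library, with at least 20 cells. Stages were compared by edgeR 4.0.16 (TMM scaling, quasi-likelihood test, Benjamini-Hochberg adjustment over all genes passing its expression filter), with DESeq2 1.42.0 as the alternative test. Both ran in R 4.3.3, where limma 3.58.1 was present, and no limma test is reported here. Poisson, binomial and conditional ratio intervals are exact, at 95%. On simulated counts with known changes, the test recovered 28% of 2-fold and 89% of 4-fold changes in OPC-like sums (9843 genes), and 10% and 67% in astrocyte-like sums (10344 genes). The simulation gave all genes of a class the same dispersion and left out differences of region, strain and clusters between libraries. These shares therefore do not measure the power of the real comparison. Calls among its unchanged genes are not given here.

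The members, lists and rules were chosen with earlier results of these data known. Values in every library are given for members with a mean of at least 20 CPM in OPC-like sums, the 4 leading members of other classes, members called, and a list of common subunits. Alternatives were no count filter, DESeq2, each library left out, doublets kept, a mitochondrial limit of 20%, Leiden resolution 1.0, receptor genes allowed in clustering, at least 50 cells and thinning to 1000 UMIs. Promoters are from RefSeq, and positions of all 45 members from GENCODE on the build of the files. Protein sequences were not used here. Counts cover all members, but single values of some members are not reported here.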

Additional observations from a re-analysis of the deposited data

Results flagged for a closer look

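Among groups of 4 early libraries, 3 of the 39 levels tested held a sample far from the others by Dixon's criterion, which chance meets in about 1 in 20 groups. In OPC-like cells, Grik2 was high in P7 SVZ at 50.5 CPM (nearest library 20.5 CPM). In neuroblast-like cells, Gria2 was high in P7 SVZ at 305 CPM (nearest 179 CPM). In microglia-like cells, Grin2b was high in P2 cortex at 44.7 CPM (nearest 6.73 CPM). P7 SVZ is the library that differs from the others in strain as well as region, and that shares almost no barcodes with them.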

How the results depend on the processing

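The count of members called in astrocyte-like cells was 1 and became 3 with no filter and with DESeq2, 0 with a mitochondrial limit of 20%, and 0 to 9 when a library was left out. In OPC-like cells it was 0 and ran from 0 to 2 when a library was left out, and in neuroblast-like cells it was 0 and became 2 with no filter. The shares of all genes called in these settings are not given here. The median log2 difference of the members in astrocyte-like cells was 0.38 and -0.10 with a mitochondrial limit of 20%. In endothelial-like cells it was -0.24, -1.60 with no filter and -0.86 to 0.85 with a library left out. In microglia-like cells it was 0.67 and ran from -1.80, without P60 grey matter, to 1.16. In neuroblast-like cells it was -0.16, -1.12 with no filter and -0.84 to -0.076 with a library left out. Thinned to 1000 UMIs, cells with a UMI fell to a mean of 57.1% for AMPA and 17.8% for GABA-A subunits in OPC-like cells and 41.4% for GABA-A subunits in astrocyte-like cells, since fewer UMIs were kept. The cause of the other shifts was not tested.

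Of the other alternatives, 287 of the counts, medians and shares and 900 of the values of single members kept their direction and their side of the threshold or stayed within the spread. Among the rest, 14 single values crossed into and 5 out of the adjusted threshold, and 12 levels moved by more than 1 SD. Leaving out 1 library cannot move a mean level or mean share by more than its SD over libraries. Levels and shares with a library left out were therefore bound to stay within the spread. They are counted in the 287 and the 900, so these counts do not measure how stable levels and shares are to leaving out a library. A minimum of 50 cells gave no value for COP-like cells. No paired analysis was possible because the labels give early and adult libraries no shared replicate number; the comparison of classes by an interaction term had the library as a block. Depth limits low members most: a 0 in the smallest OPC-like sum allows up to 8.26 CPM.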
